A study of Homo sapiens with 2 samples.

Results

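The 37 genes described here encode the core machinery of autophagy together with proteins of the lysosome. They were taken as a list of gene names, chosen with earlier results of these data known, and every probe set annotated to them was used, 90 probe sets of the 54675 on the array. All 37 had at least 1 probe set of their own, as had 19775 genes in the whole series. HepG2 cells, a human hepatocellular carcinoma line, were treated for 18 h with the ethanolic extract of Padma 28, a polyherbal Indo-Tibetan preparation, at 218 μg/ml, or with the solvent alone, 0.9% ethanol (EtOH). Per the labels, treatment began 6 h after seeding, in medium with fetal calf serum and without antibiotics, while the study's methods give a longer time in culture before treatment. Cells from 3 cultures were pooled for each treatment and measured on 1 Affymetrix U133 Plus 2.0 array. As each treatment was measured once, how far cultures vary is unknown, nothing could be tested across samples, and all differences below describe this pair of arrays.

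Autophagy encloses parts of the cytoplasm in a double membrane, the autophagosome, which fuses with lysosomes, whose acid hydrolases degrade the content. The ULK kinase complex starts the process and a class III phosphatidylinositol 3-kinase complex marks the membrane with PI3P. A pair of ubiquitin-like conjugation systems then attaches ATG8 proteins such as LC3 to it, and cargo receptors bridge these to the material to be degraded. TFEB and TFE3 are transcription factors that activate autophagy and lysosomal genes through E-box sites in their promoters. In hepatocytes, autophagy is known for the turnover of organelles, protein aggregates and lipid droplets.

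To show the promoter sites that TFEB and TFE3 are known to bind, promoters were searched for the E-box TCACGTG on both strands, from 250 bases before to 50 bases after the start site (RefSeq, GRCh38.p14). For 32 of the 37 genes 39 promoters were matched, and those of ATG4D, CTSB, LAMP2, RB1CC1 and UVRAG were not analysed here. The letters were found in 5 of the 39 promoters (12.8%), against 3.71% of all 35116 promoters in the table. These 5 belong to ATG3, LAMP1, MCOLN1, ATG14 and CTSD, and the same 5 hold the shorter core CACGTG, which lies within TCACGTG and was found in 7.26% of all promoters. The palindrome TCACGTGA, which contains both, was found in ATG3, LAMP1 and MCOLN1, 7.69% of the 39 promoters, against 0.980% of all. A match is a string of letters and was not tested as a binding site. The stretches around the matches are shown on the strand of each gene, with each match on either strand in capitals. LAMP1 (chr13:113297021-113297269, plus strand) holds matches at 6 positions, counting a palindrome matched on both strands once, MCOLN1 (chr19:7522557-7522641, plus strand) and ATG3 (chr3:112561926-112562006, minus strand) hold 2 each, and ATG14 (chr14:55411820-55411876, minus strand) and CTSD (chr11:1763943-1763999, minus strand) hold 1 each.
LAMP1: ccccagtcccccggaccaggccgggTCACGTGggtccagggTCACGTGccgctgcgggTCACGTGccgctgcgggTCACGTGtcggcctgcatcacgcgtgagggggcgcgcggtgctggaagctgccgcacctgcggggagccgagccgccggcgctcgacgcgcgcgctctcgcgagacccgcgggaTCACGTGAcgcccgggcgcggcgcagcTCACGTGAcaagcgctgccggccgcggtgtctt
MCOLN1: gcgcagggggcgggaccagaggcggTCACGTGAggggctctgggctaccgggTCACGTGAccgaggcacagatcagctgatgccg
ATG3: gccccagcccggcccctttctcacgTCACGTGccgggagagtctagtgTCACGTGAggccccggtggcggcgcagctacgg
ATG14: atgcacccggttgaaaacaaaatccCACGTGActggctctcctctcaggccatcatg
CTSD: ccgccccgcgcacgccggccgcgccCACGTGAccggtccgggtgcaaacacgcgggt

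Sites of other factors were searched in the same promoters. The antioxidant response element TGACNNNGC, the site of Nrf2, was found on either strand in 5 of the 39 promoters (12.8%), those of MAP1LC3B, CTSL, CTSD, LAMP1 and CALCOCO2, against 13.3% of all promoters. The cyclic AMP response element TGACGTCA, a palindrome, was found in 1, that of GABARAPL1, against 1.85% of all promoters. The element TGATGNAA, bound by ATF4, was found in none of the 39 and in 3.62% of all promoters. These motifs can overlap each other and the E-box. The promoters of MAP1LC3B (chr16:87392086-87392385, plus strand) and GABARAPL1 (chr12:10212627-10212926, plus strand) are shown because these were the members of the ATG8 family with the largest differences below. Capitals mark TGACCAGGC in MAP1LC3B and TGACGTCA in GABARAPL1.
MAP1LC3B: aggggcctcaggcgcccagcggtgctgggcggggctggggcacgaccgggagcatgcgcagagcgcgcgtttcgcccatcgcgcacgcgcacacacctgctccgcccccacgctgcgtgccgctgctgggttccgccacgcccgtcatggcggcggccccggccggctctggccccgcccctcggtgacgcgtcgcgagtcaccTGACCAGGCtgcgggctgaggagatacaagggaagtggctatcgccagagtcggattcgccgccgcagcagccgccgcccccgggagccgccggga
GABARAPL1: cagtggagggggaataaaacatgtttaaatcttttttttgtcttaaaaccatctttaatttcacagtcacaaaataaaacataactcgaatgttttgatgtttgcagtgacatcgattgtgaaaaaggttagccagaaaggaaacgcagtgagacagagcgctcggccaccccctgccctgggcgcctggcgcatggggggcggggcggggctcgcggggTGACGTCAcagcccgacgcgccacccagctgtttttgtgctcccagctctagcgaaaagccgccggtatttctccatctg

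All values are log2 expression values that the authors computed with GCRMA, and a log2 difference is Padma 28 minus EtOH. For each gene the brightest probe set annotated to no other gene is given. The background limit was set 2 log2 units over the most frequent value of each array, at 4.35 with Padma 28 and at 4.25 with EtOH, or at 4.30 for the mean of both. As a guide to measurement error within these arrays, the log2 differences of the brightest and the next brightest probe set of a gene lay a median of 0.14 apart over 4996 genes, and 0.47 apart at the 90th percentile. The 18 hybridisation controls, RNAs added in fixed amounts, differed by -0.15 to 0.10. The 3′ minus 5′ difference of GAPDH, a sign of RNA integrity, was 0.04 with Padma 28 and 0.08 with EtOH, and that of ACTB was 1.13 on both arrays. All 8 markers of hepatocytes and HepG2 cells were well above background, at 12.84 to 16.52 with Padma 28 and 13.28 to 16.62 with EtOH. Their differences were -0.55 to -0.05 on the brightest probe set, all below 0. Over all own probe sets above background ALB ranged from -1.07 to 0.27, TF from -1.23 to -0.17 and APOA1 from -0.07 to 0.03. The part of these differences in the results was not tested. Among 7 markers of other liver and blood cells PTPRC, VWF and CD3E were below background on both arrays, while KRT19, ACTA2, PECAM1 and COL1A1 were above. RNA of whole cultures was measured, so fewer cells with a transcript and less of it per cell cannot be told apart.

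With Padma 28 the autophagy and lysosome genes stayed within 2-fold of the solvent control. Of the 37 genes 0 were more than 2-fold higher and 0 more than 2-fold lower, while 0.875% of all genes were higher and 0.384% lower by this measure, or 1.47% and 0.643% of the 10271 genes with a mean above background. None of the 90 probe sets passed 2-fold either. With shares this small among all genes, a count of 0 says nothing about a list of this size. At the smaller limit of 1.5-fold, a log2 difference of 0.58, TFE3 and TFEB were higher and no gene was lower. This is 2 of 37 genes, beside 3.61% of all genes higher and 1.56% lower, or 6.33% and 2.79% of genes above background, so the shares were close to the background.

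**Figure D1:**
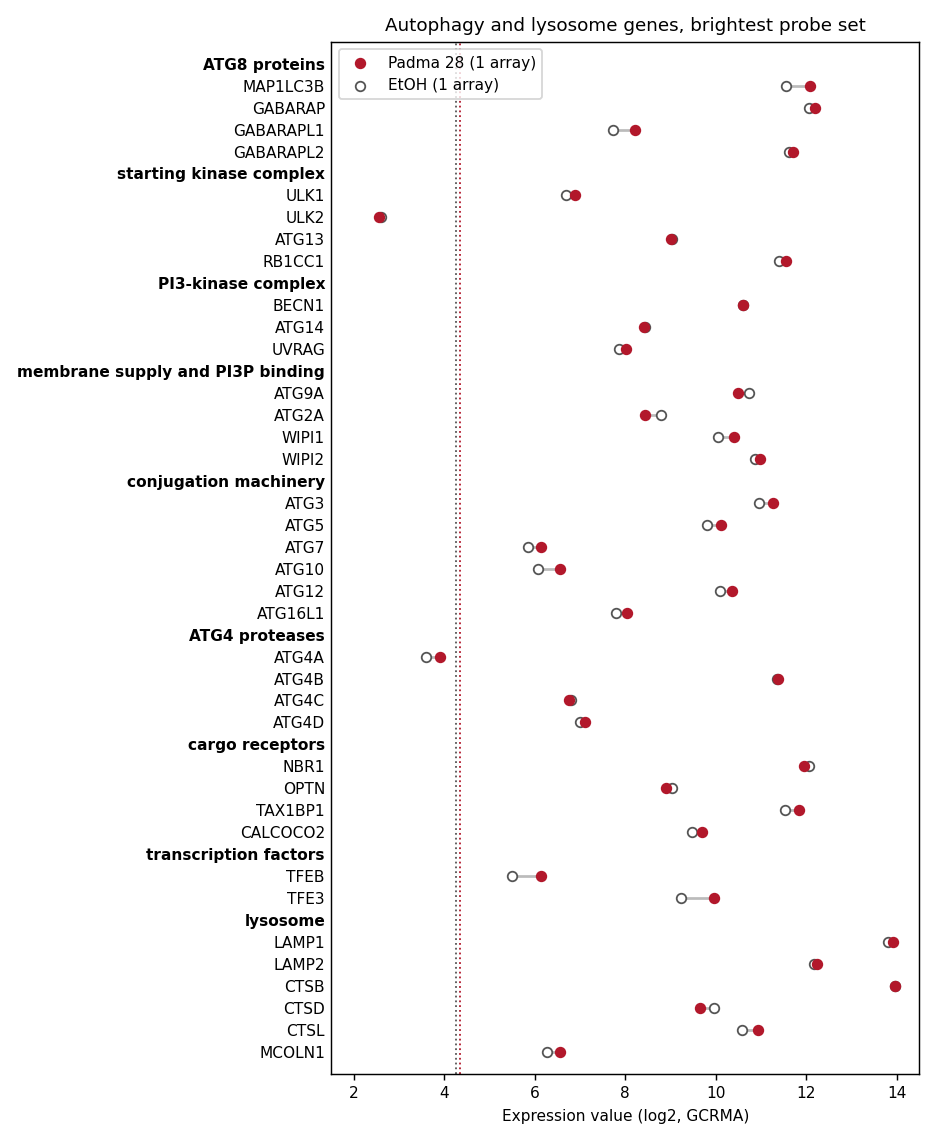
Log2 expression value (horizontal axis) of the brightest probe set of each of the 37 genes, grouped by role, with 1 array per treatment; red points are Padma 28, open points are EtOH, and dotted lines mark the background limits at 4.35 and 4.25. The points of a gene lie close together throughout, and ULK2 and ATG4A lie below both limits.

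Of the 35 genes with a mean above background, 25 were higher with Padma 28 and 10 lower. Among all genes above background 58.3% had a difference above 0. The median log2 difference of the 37 genes was 0.15, with a range of -0.34 to 0.72, beside a median of -0.02 over all genes and 0.06 over genes above background. For 14 of the 35 genes the difference was smaller than the typical gap of 0.14 between probe sets of the same gene. This count was not made over all genes above background, so whether 14 is many or few is unknown. The lower and upper quartiles of the difference over all genes above background were -0.10 and 0.25, so small differences were common there too. Without _x_at and _s_at probe sets, which can match more than 1 transcript, the median was 0.06 over the 26 genes that remained, of which 14 were above 0. On their brightest probe sets of any type the same 26 genes had a median of 0.12, so both the genes left out and the probe sets used differ from the full list.

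**Figure D2:**
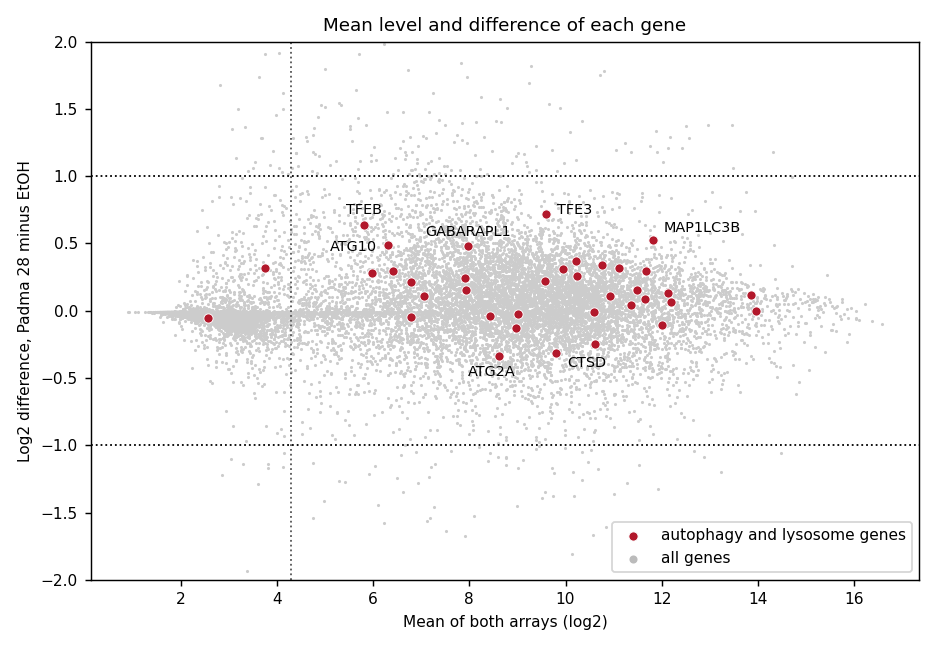
Mean of both arrays (horizontal axis) and log2 difference, Padma 28 minus EtOH (vertical axis), of the brightest probe set of each gene, from 1 array per treatment; red points are the 37 autophagy and lysosome genes and grey points all genes, of which 23 lie outside the axis, and dotted lines mark 2-fold and the background limit at 4.30. All red points lie between the 2-fold lines, with TFE3 highest and ATG2A lowest.

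On the brightest own probe sets, the transcription factors were the members with the largest differences. GABARAPL1 had the highest value with the probe set of largest difference, the median over probe sets or shared probe sets, and under the median TFE3, at 0.45, and TFEB, at 0.41, were below 1.5-fold and below MAP1LC3B, at 0.49. TFE3, a bHLH-zip factor of the MiT family, was at 9.95 with Padma 28 and 9.23 with EtOH. The log2 difference of 0.72 is 1.65-fold, and 3.77% of genes above background had a larger one. Its dimmer probe sets above background, at 0.47 and 0.43, were higher with Padma 28 as well, and a further one was below background. TFEB, its close relative, was at 6.14 with Padma 28 and 5.50 with EtOH. The difference of 0.64 is 1.56-fold, and 5.09% of genes above background had a larger one. Its other probe set, at 5.62 with Padma 28 and 5.43 with EtOH, was higher by only 0.19, so the size for TFEB rests on 1 probe set. When 16 or 64 was added to both linear values, TFE3 alone stayed past 1.5-fold.

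The 5 genes with a TCACGTG match in the promoter lay on both sides of 0 on the brightest probe set. ATG3 was higher by 0.32, MCOLN1 by 0.30 and LAMP1 by 0.11, while ATG14 was at -0.04 and CTSD at -0.31. LAMP1, with 6 positions, had a smaller difference than ATG3 and MCOLN1 with 2 each. The differences of LAMP1 and ATG14 were smaller than the typical gap of 0.14 between probe sets, and a dim ATG3 probe set was at -0.21. Whether the matches bear on the differences was not tested.

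The 4 listed ATG8 genes, whose proteins coat the growing autophagosome, were above 0 on the brightest probe set. Among all genes above background 58.3% were above 0. MAP1LC3A and MAP1LC3C, also of this family, were counted with the other autophagy genes. Both were below background, at 3.66 and 2.84 with Padma 28 and 3.85 and 2.90 with EtOH, and no fold is given for them. MAP1LC3B, the LC3 gene most used as an autophagosome marker, was at 12.09 with Padma 28 and 11.56 with EtOH, a difference of 0.53 or 1.44-fold. Its second probe set was at 11.34 and 10.88, a difference of 0.45, so both probe sets were higher with Padma 28 by similar amounts. MAP1LC3B2 is a near-identical copy, and how far its transcript adds to this signal was not tested.

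GABARAPL1, a family member known to be inducible, was at 8.21 with Padma 28 and 7.74 with EtOH on its brightest own probe set, a difference of 0.48 or 1.39-fold. On its dimmer own probe set it was at 7.41 with Padma 28 and 6.46 with EtOH, a difference of 0.95, the largest of all 90 probe sets. A further probe set, annotated to GABARAPL1 and its copy GABARAPL3 together, was at 9.07 with Padma 28 and 8.23 with EtOH, a difference of 0.84. All 3 were thus higher with Padma 28, and the brightest own probe set had the smallest difference. GABARAP and GABARAPL2, which have 1 probe set each, lay at 12.19 and 11.70 with Padma 28 and at 12.07 and 11.62 with EtOH. Their differences of 0.13 and 0.09 are within the gap between probe sets.

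**Figure D3:**
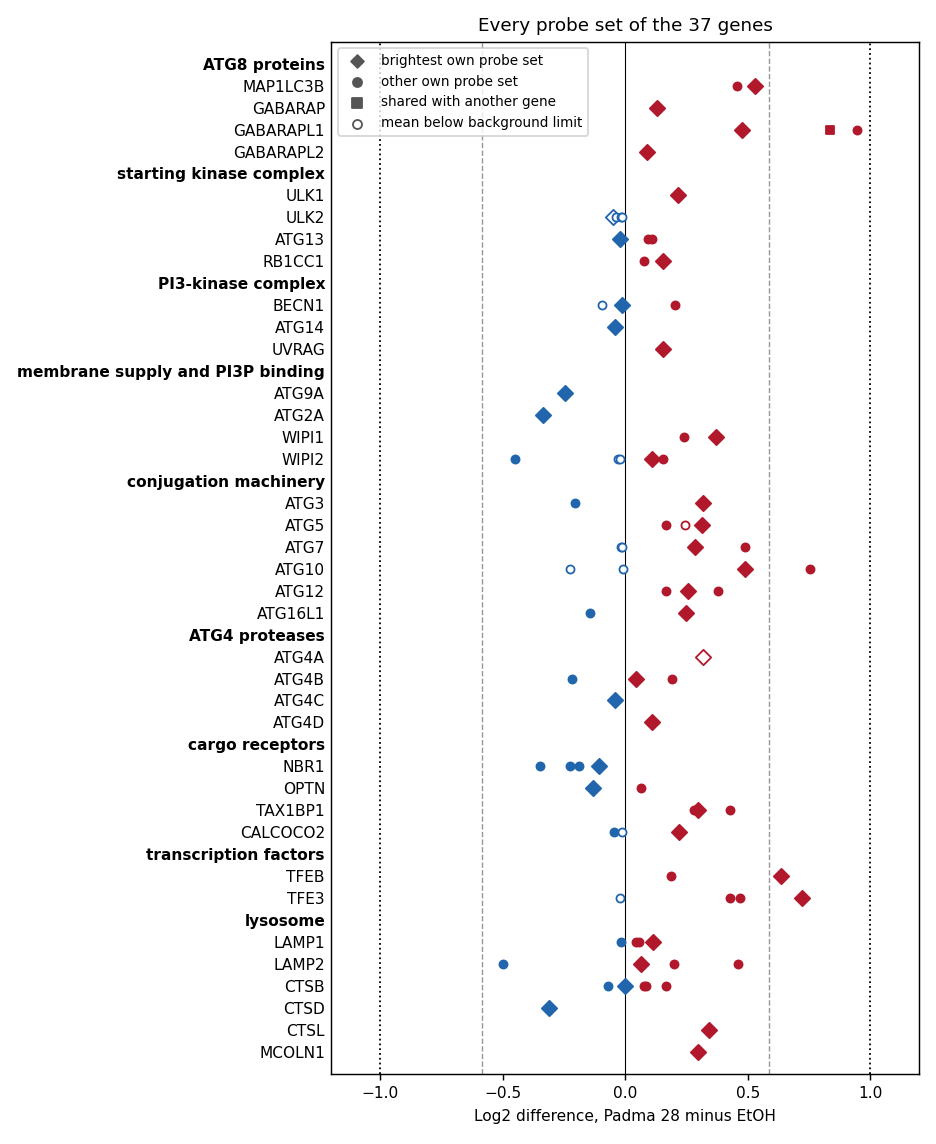
Log2 difference, Padma 28 minus EtOH (horizontal axis), of all 90 probe sets of the 37 genes, with both treatments measured once; diamonds mark the brightest own probe set, circles other own probe sets, the square is shared with GABARAPL3, open symbols have a mean below background, red is higher and blue lower, and dotted and dashed lines mark 2-fold and 1.5-fold. No probe set reaches 2-fold, GABARAPL1 comes nearest at 0.95, and the probe sets of LAMP2 lie on both sides of 0.

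The conjugation machinery, which attaches ATG8 proteins to lipid, was higher in all 6 genes on the brightest probe set. The median was 0.30 and the range narrow, from 0.25 to 0.49. A difference above 0 was also found in 58.3% of all genes above background. Of all genes above background, 9.28% had a larger difference than ATG10, the highest of the 6, and 25.4% a larger one than ATG16L1, the lowest. ATG10, the E2-like enzyme that joins ATG12 to ATG5, was at 6.55 with Padma 28 and 6.07 with EtOH, a difference of 0.49. Its second probe set above background was at 6.40 with Padma 28 and 5.65 with EtOH, a difference of 0.75. ATG7, the E1-like enzyme of both systems, was at 6.13 with Padma 28 and 5.84 with EtOH, a difference of 0.28, and at 0.49 on a second probe set.

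ATG3, the E2-like enzyme for ATG8 proteins, was at 11.26 with Padma 28 and 10.94 with EtOH, a difference of 0.32, while a dim second probe set was at -0.21. ATG5 was at 10.11 with Padma 28 and 9.80 with EtOH, and its partner ATG12 at 10.36 with Padma 28 and 10.10 with EtOH. The probe sets of both that were above background lay above 0, at 0.17 to 0.31 for ATG5 and 0.17 to 0.38 for ATG12. ATG16L1, the scaffold that places the ATG12-ATG5 conjugate on the membrane, was at 8.03 with Padma 28 and 7.78 with EtOH, with differences of 0.25 on its brightest and -0.15 on its dimmer probe set. The sign of the brightest probe set was thus shared by the others above background for ATG5, ATG7, ATG10 and ATG12, and not for ATG3 and ATG16L1.

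The ATG4 proteases, which prepare ATG8 proteins for conjugation and release them from lipid, stayed near 0. ATG4B was at 11.38 with Padma 28 and 11.34 with EtOH, and its 3 probe sets ranged from -0.22 to 0.19. ATG4C was at 6.76 with Padma 28 and 6.81 with EtOH. ATG4D was at 7.11 with Padma 28 and 7.00 with EtOH, so these 3 proteases were within 0.11 of 0. ATG4A was below background on both arrays, at 3.91 with Padma 28 and 3.59 with EtOH, and no fold is given for it.

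In the complexes that start autophagy all differences lay within 0.22 of 0. Of the ULK complex, the kinase ULK1 was at 6.89 with Padma 28 and 6.68 with EtOH, a difference of 0.22. The related kinase ULK2 was below background on both arrays in all 4 of its probe sets. The scaffold RB1CC1, also called FIP200, was at 11.56 with Padma 28 and 11.41 with EtOH, and its partner ATG13 at 9.00 with Padma 28 and 9.02 with EtOH. These differences of 0.15 and -0.02 are close to the gap between probe sets or below it.

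In the PI3-kinase complex, BECN1, its Beclin 1 subunit, was at 10.60 with Padma 28 and 10.61 with EtOH. ATG14, which directs the complex to autophagosome formation, was at 8.40 with Padma 28 and 8.44 with EtOH, and UVRAG, which takes its place in endosomal complexes, at 8.01 with Padma 28 and 7.85 with EtOH. Their differences were -0.01, -0.04 and 0.15, so on the brightest probe set all 3 subunits stayed close to the solvent control. A dimmer BECN1 probe set was at 9.36 with Padma 28 and 9.16 with EtOH, a difference of 0.20.

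The proteins of membrane supply and PI3P binding lay on both sides of 0. The scramblase ATG9A, carried on vesicles that seed the membrane, was at 10.49 with Padma 28 and 10.73 with EtOH, a difference of -0.25. The lipid transfer protein ATG2A was at 8.44 with Padma 28 and 8.78 with EtOH, a difference of -0.34, the lowest of the 37 genes. Both have a single probe set. WIPI1, a PI3P-binding protein, was at 10.41 with Padma 28 and 10.04 with EtOH, a difference of 0.37, and at 0.24 on its other probe set. Its relative WIPI2, which recruits ATG16L1, was at 10.98 with Padma 28 and 10.87 with EtOH, while a dimmer probe set, singled out after its value was seen, was at 5.35 with Padma 28 and 5.80 with EtOH.

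Among the cargo receptors, TAX1BP1 was at 11.83 with Padma 28 and 11.53 with EtOH, with differences of 0.28 to 0.43 on its 3 probe sets. NBR1, a receptor for ubiquitinated cargo, was at 11.94 with Padma 28 and 12.05 with EtOH. Its 4 probe sets were all lower, at -0.35 to -0.11. Among the 23 genes with more than 1 probe set above background, NBR1 was the only one with all lower. In 11 of the 23 all were higher. The same counts were not made over all genes, and 58.3% of genes above background had a difference above 0. CALCOCO2, also called NDP52, was at 9.69 with Padma 28 and 9.47 with EtOH, a difference of 0.22. OPTN, optineurin, was at 8.90 with Padma 28 and 9.03 with EtOH, a difference of -0.13, and its other probe set was at 0.06. The 4 receptors were thus split evenly between higher and lower values.

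The lysosomal genes lay on both sides of 0, from -0.31 to 0.34 on the brightest probe set. LAMP1, a glycoprotein of the lysosomal membrane, was at 13.92 with Padma 28 and 13.80 with EtOH, and its 4 probe sets lay between -0.02 and 0.11. CTSB, the cysteine protease cathepsin B, was at 13.96 on both arrays, with 5 probe sets between -0.07 and 0.17. CTSL, cathepsin L, was at 10.93 with Padma 28 and 10.59 with EtOH, a difference of 0.34. CTSD, the aspartic protease cathepsin D, was at 9.65 with Padma 28 and 9.96 with EtOH, a difference of -0.31. The 3 cathepsins thus lay above, below and at 0. MCOLN1, the calcium channel of the lysosomal membrane, was at 6.56 with Padma 28 and 6.26 with EtOH, a difference of 0.30. CTSL, CTSD and MCOLN1 each have a single probe set.

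LAMP2, a membrane glycoprotein with several splice forms, differed between its probe sets. The brightest was at 12.23 with Padma 28 and 12.16 with EtOH, a difference of 0.07. Another, singled out after its value was seen, was at 10.69 with Padma 28 and 11.19 with EtOH, a difference of -0.50, the lowest of all 90 probe sets. The dimmest was at 7.07 with Padma 28 and 6.61 with EtOH, a difference of 0.46. Which splice form each probe set detects was not analysed here.

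**Figure D4:**
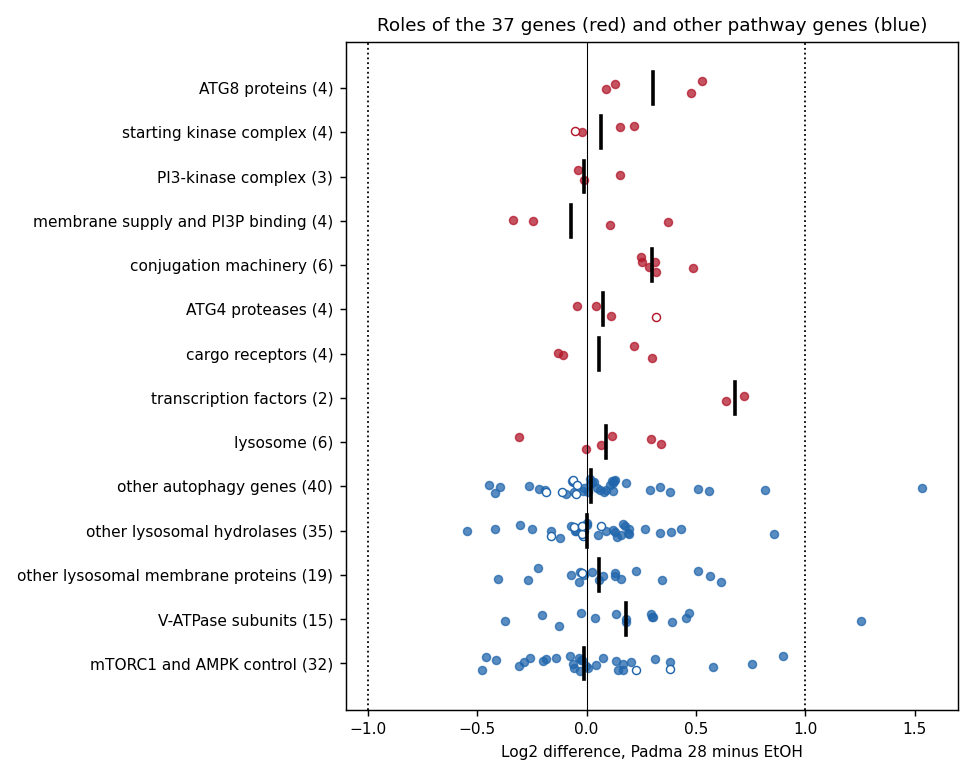
Log2 difference, Padma 28 minus EtOH (horizontal axis), of the brightest probe set of each gene, from 1 array per treatment, for the roles of the 37 genes (red) and 5 lists of other pathway genes (blue), with the number of genes in brackets; open points have a mean below background, black bars are medians and dotted lines mark 2-fold. The medians of the transcription factors, ATG8 proteins and conjugation machinery lie at 0.68, 0.30 and 0.30, and CCPG1 and ATP6V0A2 are the blue points past 2-fold.

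Other genes of the pathway were listed in addition to the 37, and CCPG1 and ATP6V0A2 among them were past 2-fold. Of 40 other autophagy genes 1 was more than 2-fold higher and 0 lower, beside 0.875% and 0.384% of all genes, with a median of 0.02, so with 1 gene the count is no result about the list. CCPG1, a receptor for the turnover of endoplasmic reticulum, was at 10.42 with Padma 28 and 8.89 with EtOH, a difference of 1.53 or 2.90-fold. A further 4 CCPG1 probe sets, shared with a read-through transcript, were higher by 0.89 to 1.46. SQSTM1, the cargo receptor p62, was at 11.99 with Padma 28 and 11.17 with EtOH, a difference of 0.81, although its 4 probe sets above background ranged from -0.05 to 0.81. TEX264, also a receptor for endoplasmic reticulum, was higher by 0.56.

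The V-ATPase, the pump that acidifies lysosomes, had a median of 0.18 over 15 genes, of which 11 were above 0, 1 was more than 2-fold higher and 0 lower. Among genes above background 58.3% were above 0, 1.47% more than 2-fold higher and 0.643% lower. ATP6V0A2, a subunit of its membrane part, was at 8.30 with Padma 28 and 7.05 with EtOH, a difference of 1.25 or 2.38-fold, on its only probe set above background. ATP6V0B and ATP6V1D were higher by 0.47 and 0.46. The related ATP6V0A1 was at -0.37 and, on a dimmer probe set, at -0.85, so subunits lay on both sides of 0.

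Lysosomal hydrolases and membrane proteins outside the 37 stayed within 2-fold. In the whole series only 0.875% of genes passed this limit upward and 0.384% downward. With shares this small, the absence of such genes is no result about lists of 35 and 19 genes. The 35 hydrolases had a median of 0.0014, with GLA, the alpha-galactosidase, at 0.86, MANBA, the beta-mannosidase, at -0.55 and ARSA, the arylsulfatase A, at 0.43. The 19 membrane proteins had a median of 0.06, with CLN3 at 0.61, the cystine exporter CTNS at 0.56 and the amino acid sensor SLC38A9 at 0.51. The hydrolases well above background, 28 of the 35, had a median of 0.11, and the 18 such membrane proteins one of 0.07.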

How the data were processed

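Cells of 3 cultures per treatment were pooled, and their RNA was hybridised to 1 array. From the scans the authors made log2 values with GCRMA, which corrects background from probe sequences, sets quantiles equal and summarizes probes, and deposited them for 54675 probe sets. GCRMA is given as version 2.28.0 and R as 2.15.1 in the submitters' processing notes, later versions than in the paper, whose unspecific filter was not applied here. Quantile normalization sets the overall distributions equal, so a shift of all transcripts would not be seen.

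The difference Padma 28 minus EtOH was taken per probe set, following the paper's methods. Genes were named from the platform annotation through Entrez identifiers (RefSeq, GRCh38.p14), with 41097 probe sets of 1 gene, 1801 of several and 11777 with none. All members were named, as were other pathway genes past 2-fold or among the 3 largest differences of a list. ATP6V0A1, named for contrast, was chosen after its value was seen, and MAP1LC3A and MAP1LC3C were named as further ATG8 genes. The members and lists were chosen with earlier results of these data known.

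The alternatives changed the probe set that represents a gene, shared probe sets, an added constant, centring and the background limit. Tables were handled with pandas 2.3.3 and numpy 2.4.6 in Python 3.11.15, the loess curve was fitted with statsmodels 0.14.6 and plots were drawn with matplotlib 3.10.9, and the steps were tested on simulated data.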

Additional observations from a re-analysis of the deposited data

How the results depend on the processing

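The counts past 2-fold stayed at 0 higher and 0 lower under all 11 alternatives, as did the count of 0 more than 1.5-fold lower. All 90 probe sets lay between -0.50 and 0.95. Another choice of probe set, an added constant or another limit therefore could not raise these counts. The count more than 1.5-fold higher, 2 on the brightest probe sets, was 4 with the probe set of largest difference (GABARAPL1, ATG10, TFEB and TFE3), 1 with the median over probe sets (GABARAPL1) and 1 with 16 added or 64 added (TFE3). It was 3 with shared probe sets counted for each gene (GABARAPL1, TFEB and TFE3), and 2 under the other 6 alternatives. The median of the 37 genes ranged from 0.06 to 0.18. Its lowest value came without _x_at and _s_at probe sets. Of 391 values of single genes under the alternatives, 25 moved by more than 0.14, the median gap between probe sets of a gene. Many of the 391 could not move by this much, so the share is no measure of stability. The background limits only left genes out, median centring shifted all genes by the same small amount, and shared probe sets concerned GABARAPL1 alone. In 16 values of 9 genes the sign was the other one, with ATG3 at -0.21, ATG7 at -0.02, WIPI2 at -0.45 and OPTN at 0.06 without _x_at and _s_at probe sets, and WIPI2 at -0.45, LAMP2 at -0.50, ATG4B at -0.22, BECN1 at 0.20, CTSB at 0.17 and ATG13 at 0.11 with the probe set of largest difference. No paired analysis was possible because there was 1 array per treatment. The number of arrays limits the precision, and ULK2 and ATG4A were too dim for a fold.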

Other observations

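Regulators of mTORC1 and AMPK, the kinases that restrain and promote autophagy, were measured on the same arrays. Among 32 measured genes 0 passed 2-fold in either direction, beside 0.875% of all genes higher and 0.384% lower, so a count of 0 says nothing about a list of this size. The median log2 difference was -0.01. SESN2, a stress-induced inhibitor of mTORC1, was at 9.06 with Padma 28 and 8.17 with EtOH, a difference of 0.90, and both of its probe sets above background were higher, by 0.82 and 0.90. LAMTOR2, a subunit of the Ragulator complex on lysosomes, was at 8.91 with Padma 28 and 8.15 with EtOH, a difference of 0.76. PRKAG1, a subunit of AMPK, was at 8.35 with Padma 28 and 7.78 with EtOH, a difference of 0.58. FNIP2, a partner of folliculin named after its values were seen, was at 10.18 with Padma 28 and 10.65 with EtOH, and its 3 probe sets ranged from -0.52 to -0.30.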
